A study of Mus musculus with 30 samples.

Results

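Pdcd1, Cd274, Pdcd1lg2, Cd80, Cd86 and Cd276 were examined across 3 cell populations of mouse 4T1 breast tumours under 2 treatments. These genes encode the T cell receptor PD-1, its ligands PD-L1 and PD-L2, the costimulatory ligands B7-1 and B7-2, and their relative B7-H3. They were chosen by name and matched by gene identifier, giving 6 genes of 55401 counted. The series title asks whether neutralising extracellular NAMPT lowers the PD-1/PD-L1 axis in breast cancer. In control libraries Pdcd1 was lowest in the fraction sorted as tumour cells and highest in CD8 cells. Cd274 and Cd86 were higher in that sorted fraction, which also carried leukocyte and fibroblast markers, than in either T cell fraction. C269 moved none of the 6 genes past an adjusted p of 0.05 in any population (edgeR quasi-likelihood test, filter on low counts). Without that filter Pdcd1 passed in CD4, among 83 genes called there, against 0 with it.

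PD-1 is induced on T cells by antigen receptor signalling and stays high on chronically stimulated cells. When PD-L1 or PD-L2 binds it, the phosphatase SHP-2 is recruited to its cytoplasmic tail and dampens signalling from the antigen receptor and CD28. PD-L1 is made by many tumour, myeloid and stromal cells and is a classical target of interferon-gamma, whereas PD-L2 is more restricted to dendritic cells and macrophages. B7-1 and B7-2 on antigen-presenting cells deliver costimulation through CD28 and are captured by CTLA-4, and B7-1 also pairs with PD-L1 on the same membrane. B7-H3 is found on many non-lymphoid cells and tumours, and its receptor is not settled.

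Mice bearing tumours of 4T1-GFP, a mouse mammary carcinoma line carrying green fluorescent protein, were treated with C269, which is an antibody to extracellular NAMPT, at 2.5 mg/kg, or with IgG1 as its control (CTRL), for which the labels give no separate dose. Both were given 2 times a week for 1 month, and all samples carry the genotype label wild-type. GFP-positive tumour cells were collected by sorting (called 4T1), and CD4+ and CD8+ T cells were separated on magnetic beads (called CD4 and CD8). The 6 groups of population and treatment held 5 libraries each, numbered 1 to 10 for 4T1, 11 to 20 for CD4 and 21 to 30 for CD8, with the 5 controls first in each population. Whether the 5 libraries of a group stem from different animals is not stated in the labels, and every p-value reflects the spread among these libraries, which may be technical.

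Libraries held 2005579 to 5176494 counts outside ribosomal RNA features, with 12208 to 18972 genes detected. CD8 C269 libraries held 2005579 to 3268974 counts and 12208 to 15786 genes, against 2599226 to 3908523 and 15775 to 17169 in CD8 CTRL. Their ribosomal RNA share was 2.48 to 7.95% against 3.18 to 5.08%. Library 27 had the fewest counts and genes of all. Expression is given as CPM, the count divided by the library's total outside ribosomal RNA features and scaled to 1000000. Differences are log2 of the ratio, C269 minus CTRL unless stated. The bead-isolated fractions carried their own coreceptors: Cd8a and Cd8b1 summed to 681.7 to 1196 CPM in CD8 libraries and 21.9 to 80.8 CPM in CD4 libraries, and Cd4, Cd40lg and Foxp3 to 155.8 to 393.5 and 5.39 to 30.4 CPM. The fraction sorted as tumour cells also held markers of other cells. The 8 epithelial markers summed to 228.5 to 577.1 CPM in 4T1 CTRL and 213.6 to 341.1 CPM in CD4 CTRL. In 4T1 CTRL the sums were 4159 to 13868 CPM for 8 neutrophil and 3187 to 53935 CPM for 7 fibroblast markers. They were 1095 to 9521 CPM for 5 MHC class II and 181.6 to 26840 CPM for 5 red cell genes. Values in 4T1 therefore cannot be assigned to tumour cells alone. Libraries 9 and 10, both in the group 4T1 C269, differed sharply from the remaining 8 of the sorted fraction. The intestinal mucin gene Muc2 was at 4408 and 5348 CPM in them against at most 10.7 CPM in the others, the female-specific transcript Xist at 0.449 and 0.193 CPM against 528.2 to 857.7 CPM, and the leukocyte gene Ptprc at 73.0 and 55.6 CPM against 252.8 to 856.8 CPM. A list of 4 Y-linked genes reached 208.3 and 210.4 CPM in this pair, with at most 1.39 CPM elsewhere in the sorted fraction. For the 8 epithelial markers the totals were 5651 and 5447 CPM, against 228.5 to 1610 CPM in the rest of 4T1. Treatment results in 4T1 are therefore given with and without libraries 9 and 10. The origin of the cells in these libraries was not tested.

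The start regions of the receptor and its ligands are shown because NFAT, AP-1 and interferon-activated factors are known regulators of these genes. RefSeq windows (GRCm38.p6) existed here for 5 of the 6 genes, and the 250 bases before the start are printed 5′ to 3′ on the gene's strand, with motif matches in capitals. The motifs, searched on both strands, were the NFAT core GGAAA, the ISRE core GAAANNGAA, the GAS element TTCNNNGAA and the AP-1 site TGANTCA. The Pdcd1 window lies at chr1:94052554-94052803 on the minus strand, that of Cd274 at chr19:29367188-29367437 and that of Pdcd1lg2 at chr19:29410669-29410918, both on the plus strand.
Pdcd1: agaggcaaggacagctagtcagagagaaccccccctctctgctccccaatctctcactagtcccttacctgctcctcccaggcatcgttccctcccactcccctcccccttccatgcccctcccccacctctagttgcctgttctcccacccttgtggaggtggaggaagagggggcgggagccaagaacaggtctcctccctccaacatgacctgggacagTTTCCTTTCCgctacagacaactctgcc
Cd274: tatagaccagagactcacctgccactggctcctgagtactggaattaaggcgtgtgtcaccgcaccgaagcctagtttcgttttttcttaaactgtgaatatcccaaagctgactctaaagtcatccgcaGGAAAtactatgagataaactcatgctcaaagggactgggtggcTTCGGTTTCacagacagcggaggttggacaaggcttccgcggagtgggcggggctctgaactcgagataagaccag
Pdcd1lg2: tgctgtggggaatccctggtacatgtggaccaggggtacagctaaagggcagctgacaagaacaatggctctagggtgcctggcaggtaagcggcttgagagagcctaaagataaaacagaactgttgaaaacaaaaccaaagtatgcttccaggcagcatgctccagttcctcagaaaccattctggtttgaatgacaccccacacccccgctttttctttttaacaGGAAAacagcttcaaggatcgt
In Pdcd1 the capitals are 2 abutting NFAT cores, starting 28 and 23 bases before the start. In Cd274 the first capitals are an NFAT core at 120 bases and the second an ISRE core at 76 bases before the start. Pdcd1lg2 held an NFAT core 22 bases before the start, Cd276 another at 142 bases, and Cd80 an AP-1 site at 42 bases. The windows of Cd80 (chr16:38458683-38458932) and Cd276 (chr9:58555034-58555283) lie inside the annotated genes. These span 38455561 to 38496335 on the plus strand and 58524298 to 58555437 on the minus strand. The RefSeq starts used for these genes are therefore not their outermost annotated starts. A GAS element was in none of these 5 windows. Of 32851 windows of the same length, 55.6% held an NFAT core, 7.13% an ISRE core, 7.02% a GAS element and 6.75% an AP-1 site, so a match is a description and not a site shown to be used. Cd274 and Pdcd1lg2 are neighbours on chromosome 19, at 29367455 to 29388095 and 29410919 to 29471161 (GRCm38).

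**Figure D1:**
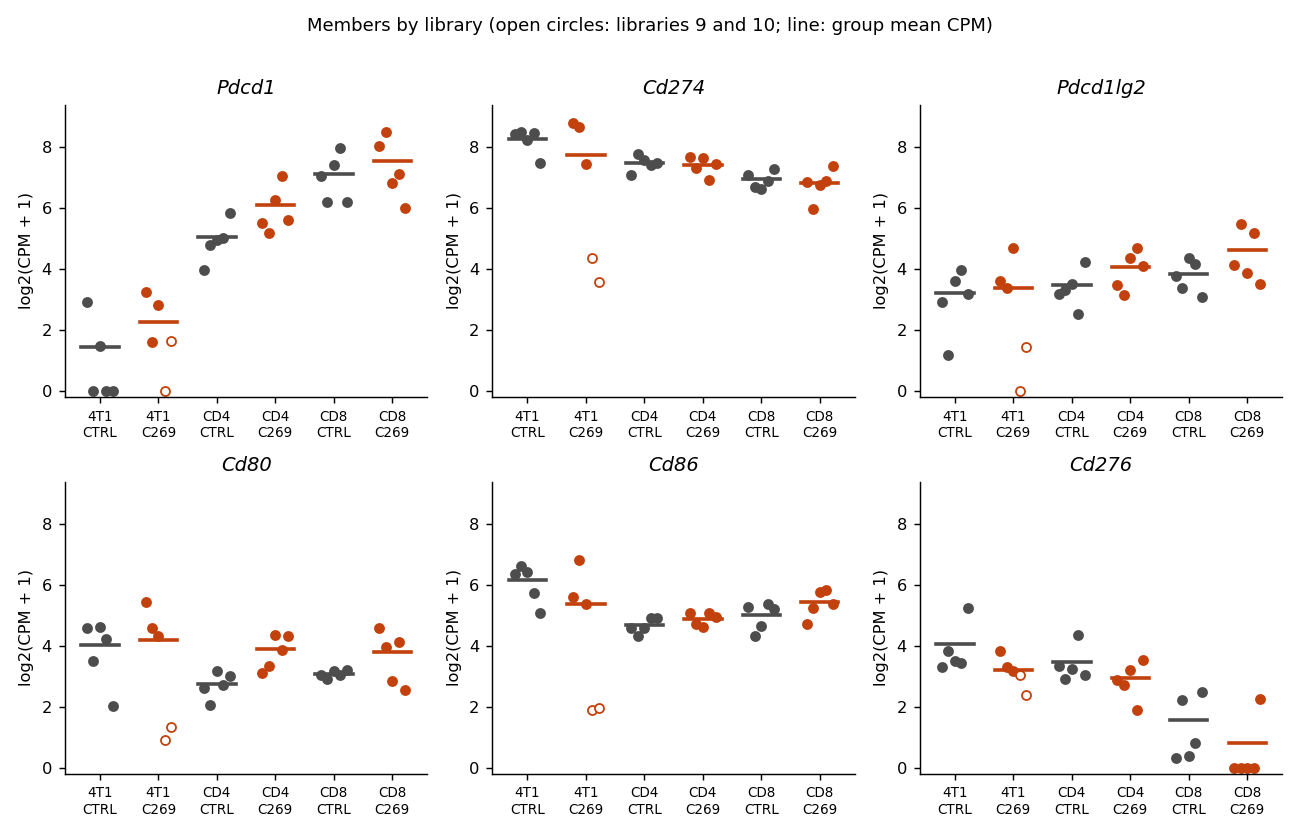
Level of each gene as log2(CPM + 1), on a common axis, with 1 point per library, 5 per group, grey for CTRL and orange for C269. The line is the group's mean CPM on the same scale, and open circles are libraries 9 and 10, which are the lowest of the 4T1 libraries for Cd274, Cd80, Cd86 and Cd276.

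Pdcd1, the gene of the receptor, lies on chromosome 1 at 94038305 to 94052553 on the minus strand. In 4T1 CTRL libraries 1 to 5 it was at 6.63, 0, 1.79, 0 and 0 CPM. In CD4 CTRL libraries 11 to 15 it was at 14.8, 26.6, 29.7, 31.8 and 56.8 CPM, and in CD8 CTRL libraries 21 to 25 at 131, 73.3, 169, 251 and 72.2 CPM. In these CTRL libraries the 3 populations formed separate ranges, with 4T1 lowest and every CD8 library above every CD4 library. How many of all genes separate in this way was not counted. The 3 libraries without a count allow up to 1.28, 0.753 and 1.04 CPM, the value of 3 counts, which covers counting error only.

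In CTRL libraries, Pdcd1 was 2.19 log2 units higher in CD8 than in CD4 (SE 0.59, adjusted p = 0.0196, edgeR quasi-likelihood). It was lower in 4T1 than in CD4 (log2 difference -3.87, SE 0.72, adjusted p = 0.00211) and lower again against CD8 (-6.06, SE 0.75, adjusted p = 1.23e-05). Across all tested genes these comparisons called 12.6%, 12.7% and 40.6% of 13201 genes, and of the 6 genes described here 2, 4 and 4. The CD8 to CD4 call was lost by DESeq2 (adjusted p = 0.0765) and without library 11, 12, 13 or 24 (2.01, 2.14, 2.17 and 1.90, adjusted p = 0.0534, 0.0514, 0.0520 and 0.0651). The calls for 4T1 against either T cell fraction held in all 15 fits that left out 1 library.

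After C269, CD4 libraries 16 to 20 held Pdcd1 at 44.4, 35.8, 76.8, 131 and 48.4 CPM. The mean was 67.3 ± 38.9 CPM (SD, n = 5) against 31.9 ± 15.4 CPM in CTRL, and 2 of the 5 treated libraries exceeded all controls while 3 were within the CTRL range. The log2 difference was 1.04 (SE 0.35, 95% interval 0.30 to 1.79), with an unadjusted p of 0.00930 and an adjusted p of 0.760 by edgeR's quasi-likelihood test, rank 151 of 12393 genes. In this comparison 5.62% of all genes had an unadjusted p under 0.05 and 0% an adjusted one. Without a filter on low counts the edgeR estimate was 1.03 with an adjusted p of 0.00580, a setting that called 83 genes against 0 with the filter. Its unadjusted p was 1.18e-05 at nearly the same estimate. Without library 19 the estimate was 0.69 (adjusted p = 0.969, with the filter). DESeq2 gave 1.04 with an adjusted p of 0.351.

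Markers of CD8 T cells and NK cells, which can carry Pdcd1, were also higher on average in the treated CD4 fraction, at 1.63 and 1.78 times CTRL. So were those of B cells, epithelial cells and fibroblasts, at 1.58, 1.79 and 1.54 times. Macrophage and monocyte markers and dendritic cell markers were lower, at 0.781 and 0.794 times. Cd8a and Cd8b1 summed to 32.4 ± 8.70 CPM in CD4 CTRL (21.9 to 42.6 CPM) and 52.9 ± 16.7 CPM in CD4 C269 (40.1 to 80.8 CPM, SD, n = 5 each), and both genes were detected in each group. The 4 NK cell markers summed to 17.98 ± 6.69 CPM (8.90 to 25.01 CPM) and 31.9 ± 20.8 CPM (14.5 to 64.8 CPM). Library 19, with the highest Pdcd1 of the CD4 libraries, had the highest sum of both lists, 80.8 and 64.8 CPM. Library 18, next in Pdcd1 at 76.8 CPM, had sums of 42.49 and 14.46 CPM, both within the CTRL ranges. The NK list summed to 116.7 to 379.9 CPM in CD8 C269 libraries, so it does not tell NK cells from CD8 cells. The ranges of the CD8 and NK lists overlapped between treatments in CD4, and the part of these cells in the Pdcd1 values was not tested.

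In CD8 C269 libraries 26 to 30 Pdcd1 was at 261, 361, 111, 139.8 and 63.0 CPM. The mean was 187 ± 122 CPM (SD, n = 5) against 139 ± 74.6 CPM in CTRL, and the C269 libraries spanned the CTRL range on both sides, with 2 above and 1 below it. The log2 difference was 0.43 (SE 0.41, 95% interval -0.44 to 1.30, adjusted p = 0.872, edgeR quasi-likelihood), and without library 27, the highest, 0.07. Of all genes in CD8, 6.63% had an unadjusted p under 0.05 and 0.00914%, 1 gene, an adjusted one.

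In 4T1 C269 libraries 6 to 10 Pdcd1 was at 8.58, 2.05, 6.12, 0 and 2.12 CPM. Its counts, 0 to 38 per library, left it out of the test with all 10 libraries. Without libraries 9 and 10 the log2 difference was 1.65 (SE 1.42, adjusted p = 0.899, edgeR quasi-likelihood), with an interval from -1.50 to 4.80. Counts of 10 T cell markers (Cd3d, Cd3e, Cd3g, Cd247, Trac, Cd2, Cd5, Lck, Cd28 and Bcl11b) were present in the sorted fraction as well: they summed to 239, 62.6, 244, 16.3 and 43.6 CPM in libraries 1 to 5 and to 304, 317, 419.5, 130.2 and 125 CPM in libraries 6 to 10. Libraries 2, 4 and 5, with the lowest sums, were CTRL libraries with no Pdcd1 count. The part of these cells in the 4T1 values of Pdcd1 was not tested, and in bulk RNA fewer cells of a type and less RNA per cell cannot be told apart.

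Set against the same 10 markers, Pdcd1 amounted to 0.464, 0.792, 0.975, 2.24 and 1.65 CPM per 100 CPM of markers in CD4 CTRL libraries. In CD4 C269 libraries the ratio was 1.36, 1.07, 2.96, 3.98 and 2.06. The means were 1.22 ± 0.714 and 2.29 ± 1.20 (SD, n = 5 each), a log2 ratio of 0.95, with p = 0.111 by a two-sided exact permutation test that could reach 0.00794. The ranges overlapped. Library 14 had the highest CTRL ratio and a marker sum of 1417 CPM against 3050 to 3443 CPM in the other CD4 CTRL libraries. In CD8 the means were 3.21 ± 1.66 and 4.22 ± 2.52 (exact permutation p = 0.556, two-sided).

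**Figure D2:**
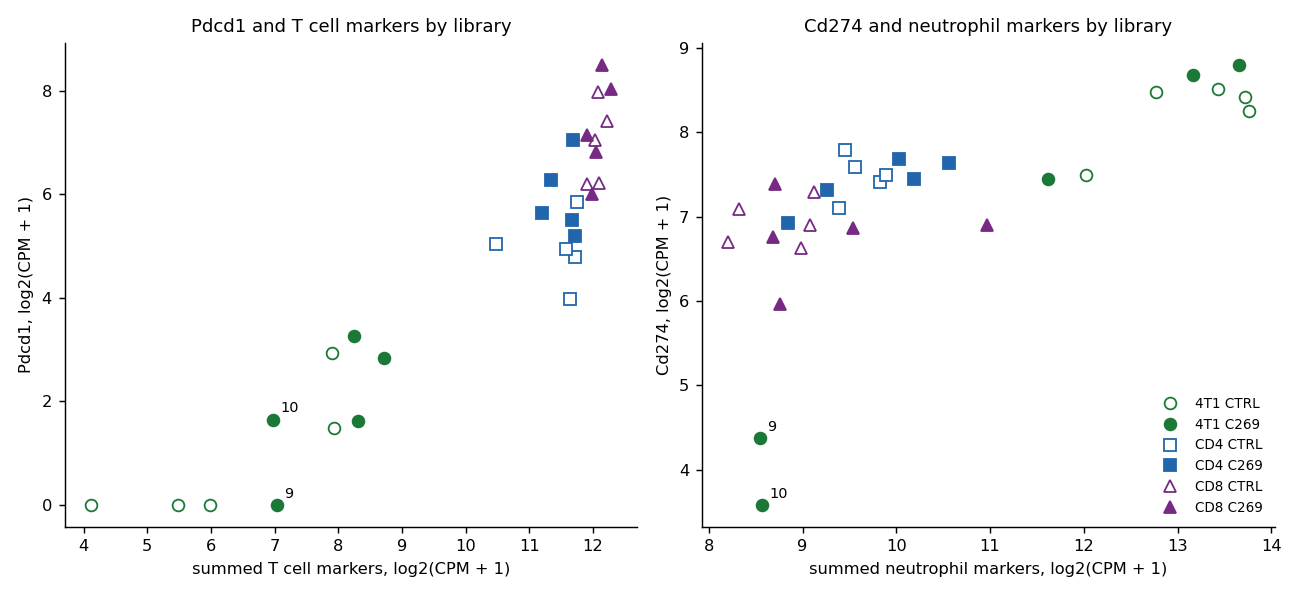
Left, Pdcd1 against the sum of 10 T cell markers, and right, Cd274 against the sum of 8 neutrophil markers, each as log2(CPM + 1) with 1 point per library (green circles 4T1, blue squares CD4, purple triangles CD8, open CTRL, filled C269). Libraries 9 and 10 are numbered; they lie apart at the lower left for Cd274, at 19.76 and 11.01 CPM.

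Cd274 encodes PD-L1, the ligand that binds PD-1 in most tumours. It was at 342, 365, 304, 356 and 179.7 CPM in 4T1 CTRL libraries. CD4 CTRL libraries held 137, 219, 191, 169 and 179.7 CPM and CD8 CTRL libraries 135, 103, 98.2, 118 and 155 CPM. Library 5 was the lowest of its group and fell inside the CD4 range, while the other 4 libraries of 4T1 CTRL lay above all T cell libraries. The overlapping antisense gene Gm36043 had 18 counts over all 30 libraries against 21125 for Cd274.

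Cd274 was higher in 4T1 CTRL than in CD4 CTRL by 0.88 log2 units (SE 0.20, adjusted p = 0.00779) and than in CD8 CTRL by 1.35 (SE 0.20, adjusted p = 5.77e-05, edgeR quasi-likelihood). The difference between CD8 and CD4 of -0.47 (SE 0.20) had an adjusted p of 0.135. In a fit of all 30 libraries, whose spread includes libraries 9 and 10, the estimates were 0.84 and 1.31 and the adjusted p 0.391 and 0.0681. Of the 3 control fractions, 4T1 thus held the least Pdcd1 and the most Cd274 in the fit of the 15 CTRL libraries.

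No difference in Cd274 with C269 was detected in the T cell fractions. CD4 C269 libraries held 204, 159, 198, 120.4 and 173 CPM, and 4 of 5 were within the CTRL range. CD8 C269 libraries held 116, 61.3, 107, 118 and 166 CPM, with 3 of 5 within it, library 27 below it and library 30 above. The log2 differences were -0.08 in CD4 (SE 0.18, 95% interval -0.46 to 0.30, adjusted p = 0.969) and -0.09 in CD8 (SE 0.24, interval -0.60 to 0.42, adjusted p = 0.953, edgeR quasi-likelihood).

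In 4T1 C269 libraries 6 to 10 Cd274 was at 444, 409, 173, 19.76 and 11.01 CPM. Libraries 6 and 7 exceeded every CTRL library, library 8 was just under the lowest of them, and libraries 9 and 10 were far below. The mean was 211 ± 207 CPM (SD, n = 5) against 309 ± 76.0 CPM in CTRL, and the log2 difference -0.42 (SE 0.84, adjusted p = 0.874, edgeR quasi-likelihood). Without libraries 9 and 10 the mean was 342 ± 148 CPM (n = 3) and the difference 0.28 (SE 0.36, 95% interval -0.53 to 1.09, adjusted p = 0.934), so the direction rested on these libraries. Of all genes in 4T1, 12.1% had an unadjusted p under 0.05 and 0% an adjusted one.

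Neutrophil markers were low in the libraries of the sorted fraction with low Cd274. Of 8 neutrophil markers the sum was 4159 to 13868 CPM in 4T1 CTRL, 3137 to 12874 CPM in C269 libraries 6 to 8, and 373 and 378 CPM in libraries 9 and 10, with all 8 detected in both groups. The lowest sums among the other 8 libraries, in libraries 5 and 8, went with the lowest Cd274 values, 179.7 and 173 CPM. In the T cell fractions the sum was 294 to 1999 CPM. CD8 CTRL libraries, with sums of 294 to 558 CPM, held Cd274 at 98.2 to 155 CPM. Libraries 9 and 10, with sums in that range, held 19.76 and 11.01 CPM. Macrophage and monocyte markers summed to 697 to 5120 CPM in 4T1 CTRL and to 212 to 1114 CPM in 4T1 C269, lowest in libraries 9 and 10. Among the other 8, libraries 5 and 8 had macrophage and monocyte sums of 1258 and 1114 CPM. Libraries 1, 3, 6 and 7 were lower, at 713, 697, 936 and 498 CPM, and libraries 2 and 4 higher, at 2365 and 5120 CPM. Dendritic cell and MHC class II sums were also lowest in library 5 among 4T1 CTRL libraries, at 154.5 and 1095 CPM. Library 8 had 301.4 and 3924 CPM, above the 266.6 and 2752 CPM of library 2. The part of these cells in the Cd274 values was not tested.

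Pdcd1lg2, the gene of PD-L2, was low in every population. It was at 6.63, 1.28, 11.2, 14.6 and 7.96 CPM in 4T1 CTRL, at 8.15, 9.02, 10.3, 4.75 and 17.9 CPM in CD4 CTRL and at 12.8, 9.34, 19.5, 16.9 and 7.51 CPM in CD8 CTRL. The ranges overlapped throughout, and no population comparison passed (log2 differences 0.46, -0.16 and -0.62 for CD8 against CD4, 4T1 against CD4 and 4T1 against CD8, adjusted p = 0.623, 0.876 and 0.334, edgeR quasi-likelihood). The transcript A930007I19Rik lies on the opposite strand within the gene and outside its exons. It had 3060 counts over all 30 libraries against 1383 for Pdcd1lg2, and reached 69.49 CPM in 4T1. Its part in the Pdcd1lg2 counts was not tested.

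Pdcd1lg2 had a higher mean after C269 in each fraction and passed in none. CD4 C269 libraries held 10.1, 7.79, 19.8, 24.9 and 16.3 CPM (log2 difference 0.62, SE 0.38, adjusted p = 0.902), and CD8 C269 libraries 16.7, 43.9, 13.5, 35.1 and 10.4 CPM (0.86, SE 0.45, adjusted p = 0.756, edgeR quasi-likelihood). In both, 2 of 5 C269 libraries lay above all CTRL libraries and the other 3 within their range. In 4T1 the values were 11.3, 9.43, 24.98, 0 and 1.74 CPM, the difference 0.19 (SE 0.99), and 0.88 (SE 0.63, adjusted p = 0.884) without libraries 9 and 10.

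The balance of the PD-1 ligands was compared per kilobase of exon, 3622 bases for Cd274 and 1961 for Pdcd1lg2. Cd274 was 85.35 ± 20.99 and Pdcd1lg2 4.25 ± 2.55 CPM per kb in 4T1 CTRL (SD, n = 5), 49.4 ± 8.35 and 5.11 ± 2.48 in CD4 CTRL, and 33.7 ± 6.51 and 6.73 ± 2.56 in CD8 CTRL. The median ratio of Cd274 to Pdcd1lg2 was 13.96, 10.03 and 5.73 in these groups, and 12.5, 5.73 and 3.75 after C269. Cd274 exceeded Pdcd1lg2 in every library with over 3 counts of the latter except library 27, a CD8 C269 library at 0.757. Ratios ranged from 2.62 to 11.02 in CD4 C269 against 5.43 to 19.2 in CD4 CTRL, so the groups overlapped, and the ratios were not tested.

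**Figure D3:**
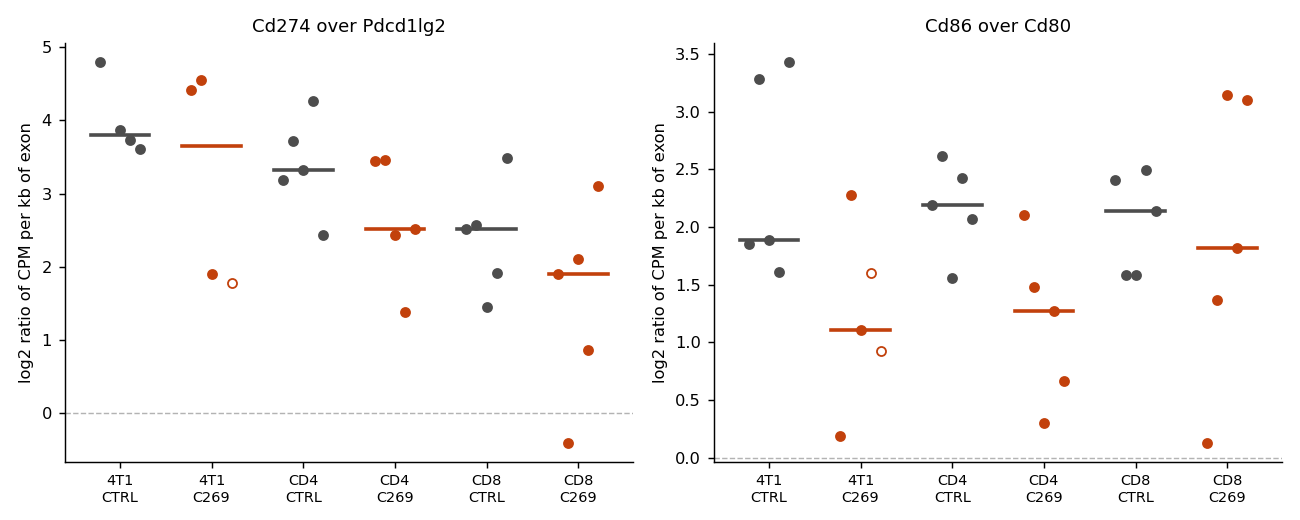
Ratio of Cd274 to Pdcd1lg2 (left) and of Cd86 to Cd80 (right) per kilobase of exon, as log2, with 1 point per library that had over 3 counts of the denominator, grey for CTRL and orange for C269, open for libraries 9 and 10. Lines are group medians, from 13.96 in 4T1 CTRL to 3.75 in CD8 C269 for the PD-1 ligands, and the dashed line marks equal levels.

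Cd80 encodes B7-1, a ligand of CD28 and CTLA-4. CD4 CTRL libraries held it at 5.09, 3.16, 7.96, 5.50 and 7.07 CPM and CD4 C269 libraries at 7.71, 9.17, 19.4, 13.7 and 18.9 CPM. All but library 16 of the C269 group lay above every CTRL library. The mean was 5.76 ± 1.86 CPM in CTRL and 13.8 ± 5.38 CPM in C269 (SD, n = 5 each), and the log2 difference 1.24 (SE 0.36, 95% interval 0.48 to 2.00). Its unadjusted p was 0.00345, rank 57 of 12393 genes, and its adjusted p 0.743 (edgeR quasi-likelihood), 0.224 without a filter on low counts and 0.213 by DESeq2. The difference was 1.07 to 1.40 when each library was left out in turn, and these values rest on 14 to 87 counts per library.

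In CD8 the CTRL libraries held Cd80 at 7.16, 6.51, 8.08, 7.31 and 8.23 CPM, a narrow range, and the C269 libraries at 23.2, 14.5, 6.12, 16.3 and 4.85 CPM. The C269 libraries split around the controls, 3 above them all and 2 below them all, and the log2 difference of 0.80 (SE 0.52) had an adjusted p of 0.806 (edgeR quasi-likelihood). In 4T1 CTRL it was at 22.9, 10.2, 23.5, 17.6 and 3.12 CPM and in C269 at 42.2, 23.2, 18.9, 0.898 and 1.54 CPM. The difference there was 0.25 (SE 0.91), or 0.94 (SE 0.59, adjusted p = 0.884) without libraries 9 and 10.

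Cd80 was higher in 4T1 CTRL than in CD4 CTRL by 1.55 log2 units (SE 0.45, adjusted p = 0.0323, edgeR quasi-likelihood). This call did not hold without library 1, 3, 11, 12, 13, 14 or 15 (1.29 to 1.70, adjusted p 0.0506 to 0.0923), without the filter on low counts (1.51, adjusted p = 0.0537) or in the fit of all 30 libraries (1.51, adjusted p = 0.173). Against CD8 CTRL the difference was 1.10 (SE 0.45, adjusted p = 0.0603), and without library 2 or 5 it passed (1.23 and 1.36, adjusted p = 0.0422 and 0.00624), as it did by DESeq2 (1.10, adjusted p = 0.0345).

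Cd86 encodes B7-2, the companion ligand, and lies near Cd80 on chromosome 16 on the opposite strand. In 4T1 CTRL it was at 81.5, 98.4, 85.8, 52.9 and 33.2 CPM, in CD4 CTRL at 22.9, 19.2, 23.2, 29.3 and 29.3 CPM and in CD8 CTRL at 37.6, 19.2, 23.9, 40.8 and 35.8 CPM. Every 4T1 CTRL library lay above every CD4 CTRL library, and 4 of 5 above every CD8 CTRL library. The share of all genes with such a separation was not counted, and the part of leukocytes in the 4T1 values was not tested. The log2 differences were 1.62 (SE 0.28, adjusted p = 0.00126) against CD4 and 1.19 (SE 0.28, adjusted p = 0.00273) against CD8 (edgeR quasi-likelihood), with adjusted p of 0.0872 and 0.114 in the fit of all 30 libraries.

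After C269, Cd86 was at 47.6, 111, 40.2, 2.69 and 2.90 CPM in 4T1. As for Cd274, libraries 9 and 10 were far below the rest, and the log2 difference went from -0.70 (SE 0.85, adjusted p = 0.779) to 0.01 (SE 0.44, adjusted p = 0.996) without them. CD4 C269 libraries held 32.7, 25.2, 23.6, 32.7 and 29.7 CPM (0.20, SE 0.18, interval -0.19 to 0.60) and CD8 C269 libraries 25.1, 36.9, 53.5, 56.8 and 41.0 CPM (0.46, SE 0.30, interval -0.18 to 1.09). In each, 3 of 5 C269 libraries lay above all CTRL libraries, by small margins in CD4, and neither passed (adjusted p = 0.921 and 0.806, edgeR quasi-likelihood).

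Per kilobase of exon, Cd86 was above Cd80 in every library. The median ratio was 3.69, 4.55 and 4.40 in CTRL 4T1, CD4 and CD8 libraries and 2.15, 2.41 and 3.53 after C269. In CD4 the ratios were 2.95 to 6.14 in CTRL and 1.23 to 4.29 in C269, and the ranges overlapped. Both genes are expressed mainly by antigen-presenting cells. The 10 dendritic cell markers, all detected in both groups, summed to 374 to 1001 CPM in CD4 CTRL and 385 to 947.5 CPM in CD4 C269. They summed to 567.5 to 1050 CPM in CD8 CTRL and 154.5 to 600.5 CPM in 4T1 CTRL. In T cell fractions this list may therefore not measure dendritic cells alone. The 6 B cell markers summed to 16.5 to 101 CPM in CD4 CTRL and 18.2 to 138 CPM in CD4 C269. The part of antigen-presenting cells in the Cd80 and Cd86 values was not tested.

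Cd276 encodes B7-H3. It was at 8.98, 13.2, 10.3, 9.78 and 36.7 CPM in 4T1 CTRL, at 9.17, 6.54, 8.43, 19.5 and 7.32 CPM in CD4 CTRL and at 0.256, 3.68, 0.299, 0.769 and 4.65 CPM in CD8 CTRL. All CD8 CTRL libraries lay below all libraries of the other CTRL groups, a separation whose share over all genes was not counted. Library 5 stood well above the rest of 4T1 CTRL. The counts behind the CD8 values were 1, 13, 1, 2 and 13. The antisense gene Gm10657, which overlaps exons of Cd276, had 82 counts over all libraries against 832, and whether counting used strand is not stated in the labels.

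Among control libraries Cd276 was lower in CD8 than in CD4, by a log2 difference of -2.29 (SE 0.68, adjusted p = 0.0338) and higher in 4T1 CTRL than in CD8 CTRL by 3.04 (SE 0.69, adjusted p = 0.00214, edgeR quasi-likelihood). The CD8 to CD4 call did not hold without library 11, 13, 14, 21, 23 or 24 (-2.35 to -1.96, adjusted p 0.0534 to 0.103) or in the fit of all 30 libraries (adjusted p = 0.0927). 4T1 against CD4 did not pass (0.75, SE 0.61, adjusted p = 0.461). Library 5, highest in Cd276, also had the highest sum of 7 fibroblast markers, 53935 CPM against 3187 to 10916 CPM in the other 4T1 CTRL libraries, and the part of such cells was not tested.

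C269 libraries held Cd276 at 13.1, 8.81, 8.08, 7.18 and 4.25 CPM in 4T1, at 6.38, 5.50, 8.23, 2.74 and 10.5 CPM in CD4 and at 0, 0, 0, 0 and 3.73 CPM in CD8. The log2 differences were -0.87 in 4T1 (SE 0.51, adjusted p = 0.520), or -0.55 without libraries 9 and 10, and -0.60 in CD4 (SE 0.41, adjusted p = 0.907, edgeR quasi-likelihood). In CD8 the counts were too low to enter the test, and the 4 libraries without a count allow up to 1.14, 1.496, 0.918 and 1.48 CPM. The difference in 4T1 shrank to -0.29 without library 5.

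**Figure D4:**
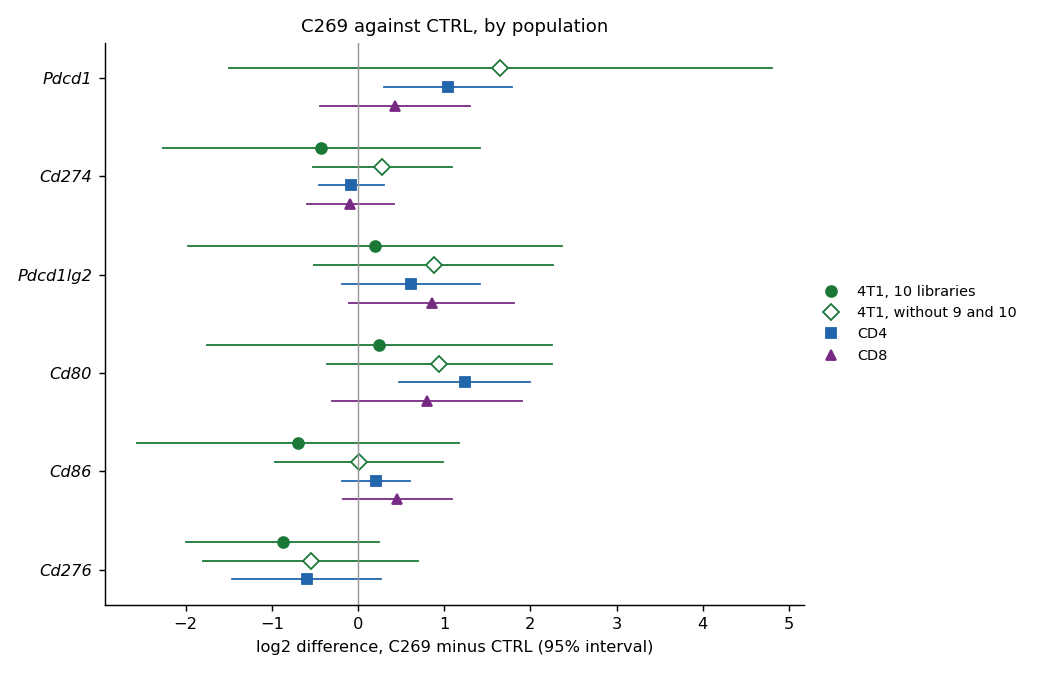
Log2 difference between C269 and CTRL with its 95% interval from edgeR, for each gene and population (green circles 4T1 with all 10 libraries, open diamonds 4T1 without libraries 9 and 10, blue squares CD4, purple triangles CD8). Pdcd1 with all 4T1 libraries and Cd276 in CD8 had too few counts to be tested; the intervals of Pdcd1 and Cd80 in CD4 are the ones that leave out 0.

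Read together, 0 of 5 genes tested in 4T1, 0 of 6 in CD4 and 0 of 5 in CD8 passed an adjusted p of 0.05 for C269 against CTRL. With an unadjusted p under 0.05 there were 0, 2 and 0, those in CD4 being Pdcd1 and Cd80. The 5 tested genes in 4T1 were 2 higher and 3 lower, the 6 in CD4 were 4 higher and 2 lower, and the 5 in CD8 were 4 higher and 1 lower. Their median log2 differences were -0.42, 0.41 and 0.46, beside 0.04, 0.00 and 0.01 over all genes tested. The authors' deposited results give CTRL over C269. At an adjusted p under 0.05 they list 818 genes in 4T1, 12 in CD4 and 13 in CD8. None of the 6 genes is among them. By the authors' values Pdcd1 in CD4 had a log2 fold change of -0.70 (unadjusted p = 0.00267, adjusted p = 0.363). Cd80 in CD4 had -0.78 (0.00129 and 0.262). The DESeq2 fit here gave 1.04 and 1.24 for C269 over CTRL, with unadjusted p of 0.00283 and 0.000933. Why the deposited fold changes were smaller was not tested.

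Whether the C269 difference itself differed between populations was tested in 1 fit of all 30 libraries. None of the 6 genes passed in any pair. Of all 14731 genes, 0% passed for CD8 against CD4, 0.00679% for 4T1 against CD4 and 0.00679% for 4T1 against CD8. The largest estimate was for Cd86, whose difference was lower in 4T1 than in CD8 by a log2 difference of -1.10 (SE 0.78, adjusted p = 0.506), and it was -0.39 (SE 0.46) without libraries 9 and 10. For Pdcd1 the CD8 difference minus the CD4 difference was -0.63 (SE 0.91, interval -2.50 to 1.23).

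**Figure D5:**
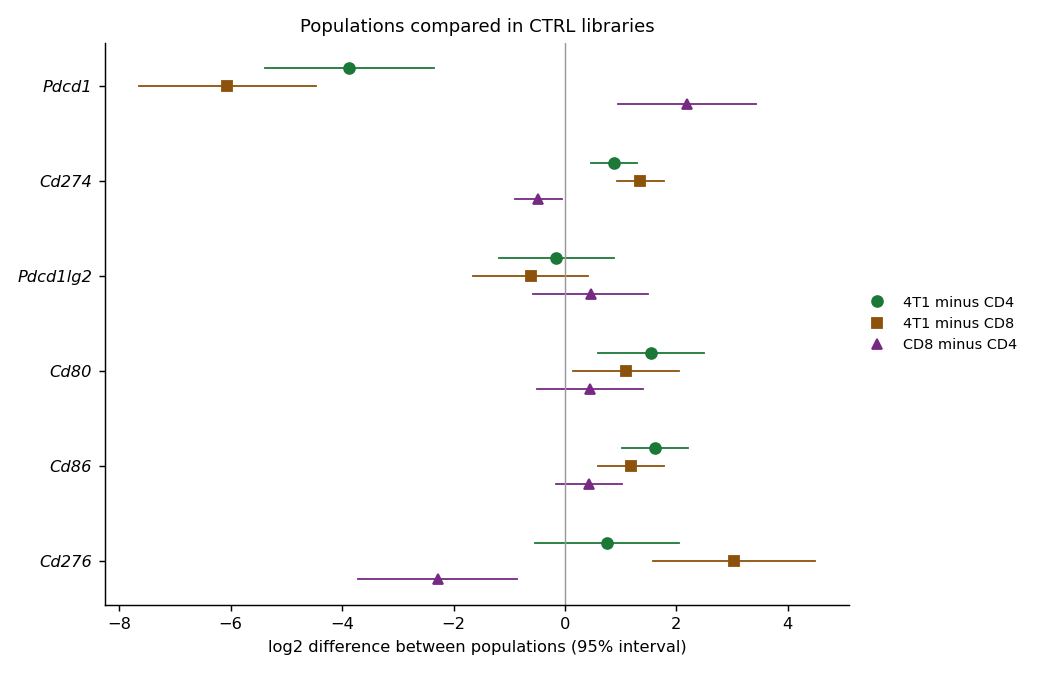
Log2 difference between populations in CTRL libraries with its 95% interval from 1 edgeR fit of 15 libraries (green circles 4T1 minus CD4, brown squares 4T1 minus CD8, purple triangles CD8 minus CD4). Pdcd1 lies to the left for both 4T1 comparisons, at -3.87 and -6.06, and Cd274 and Cd86 to the right, at 0.88 to 1.62.

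The genes around the axis were read from 5 lists, and none of their members passed in any population, in 4T1 also without libraries 9 and 10, a setting applied to the lists after seeing the data. Among the other receptors of the CD28 family and B7 relatives, 8 of 10 were tested in CD4. Rgmb, a co-receptor that binds PD-L2, went from a mean of 19.3 ± 3.09 CPM in CD4 CTRL to 11.3 ± 2.80 CPM with C269 (log2 difference -0.79, SE 0.24, adjusted p = 0.743). Icos, an inducible costimulatory receptor, averaged 529.8 ± 176 and 738 ± 29.8 CPM (0.45, SE 0.21, adjusted p = 0.882, edgeR quasi-likelihood), and in CD8 318 ± 47.1 and 447 ± 183 CPM (0.50, SE 0.22, adjusted p = 0.742). In CD8 the next smallest p belonged to the ligand of Icos, Icosl (-1.05, SE 0.75). In 4T1, Cd28 and Ctla4, both T cell receptors of B7-1 and B7-2, had differences of 1.43 (SE 1.17) and 1.48 (SE 1.23). With libraries 9 and 10 left out, Cd28 was at 2.02 (SE 1.13) and Ctla4 at 2.12 (SE 1.14).

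Of 10 genes that carry or receive the PD-1 signal, 0 were higher and 10 lower in CD4 (median -0.13), 4 higher and 6 lower in CD8 (median -0.06), and 6 higher and 4 lower in 4T1 (median 0.14). Without libraries 9 and 10 the 4T1 count was 8 higher and 2 lower (median 0.60). In CD8, Prkcq, a kinase downstream of the antigen receptor and CD28, ranged from 69.0 to 75.8 CPM in CTRL and from 21.7 to 49.9 CPM in C269. These ranges did not overlap, as held for 1.24% of genes tested in CD8, and its log2 difference was -0.96 (SE 0.23, unadjusted p = 0.000723, adjusted p = 0.739, edgeR quasi-likelihood). Ptpn6, the phosphatase SHP-1, was at -0.38 (SE 0.19) there. In 4T1, Ptpn11, the phosphatase SHP-2 recruited by PD-1, had means of 77.5 ± 16.5 and 54.3 ± 9.67 CPM, controls first (-0.48, SE 0.19, adjusted p = 0.379), and Plcg1 was at -0.40 (SE 0.26). Without libraries 9 and 10 they were at -0.49 (SE 0.23) and -0.11 (SE 0.22). In CD4 the smallest p in this list belonged to Pik3cd (-0.36, SE 0.23) and Prkcq (-0.49, SE 0.31).

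Of 16 regulators of Cd274, 7 were higher and 9 lower in both 4T1 and CD4, and 6 higher and 10 lower in CD8. In 4T1, Ifngr1, a subunit of the interferon-gamma receptor, had a control mean of 113 ± 34.9 CPM and a treated mean of 232 ± 65.3 CPM (1.02, SE 0.30, adjusted p = 0.355), while Cmtm4, a stabiliser of PD-L1 protein, was at 2.07 (SE 0.70). Without libraries 9 and 10, 10 of the list were higher and 6 lower, and its median turned from -0.19 to 0.18. Ifngr1 was then at 1.02 (SE 0.34) and Cmtm4 at 0.21 (SE 0.47). In CD4, the kinase gene Jak2 (0.57, SE 0.16, adjusted p = 0.701) and Hif1a, the hypoxia factor (0.58, SE 0.18, adjusted p = 0.743), had the smallest p. In CD8 the smallest p included that of Irf2, an interferon regulatory factor (-0.48, SE 0.19, adjusted p = 0.740, edgeR quasi-likelihood), while Cd274 in the same CD8 libraries was at -0.09.

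Of 12 interferon-gamma targets, 4 were higher and 8 lower in each population, with medians of -0.45 in 4T1, -0.06 in CD4 and -0.08 in CD8. Cxcl9, a chemokine for T cells, was at -1.37 in 4T1 (SE 0.48, adjusted p = 0.359) and -1.18 in CD8 (SE 0.41, adjusted p = 0.739, edgeR quasi-likelihood). Socs1, a feedback inhibitor, was at -0.88 (SE 0.45) in 4T1. Without libraries 9 and 10 the 4T1 count was 5 higher and 7 lower (median -0.15), with Cxcl9 at -1.08 (SE 0.53) and Socs1 at -0.40 (SE 0.37). In CD4 the smallest p belonged to Irf1 (830.3 ± 131 against 585 ± 157 CPM, -0.52, SE 0.20, adjusted p = 0.865) and Psmb9, an immunoproteasome subunit (-0.18, SE 0.14).

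Of 15 regulators of Pdcd1, 10 were higher and 5 lower in CD4 (median 0.12), 7 and 8 in CD8 (median -0.01) and 8 and 7 in 4T1 (median 0.11). In CD4, Eomes and Tbx21, T-box factors of effector cells, had the smallest p, at 1.13 (SE 0.48, 6.48 ± 4.73 against 14.6 ± 6.77 CPM, adjusted p = 0.882) and 0.47 (SE 0.33, adjusted p = 0.907, edgeR quasi-likelihood). In CD8 these were Irf4 (-0.27, SE 0.17) and Prdm1, the gene of Blimp-1 (0.48, SE 0.33). In 4T1 they were Tox, a factor of exhausted T cells (1.75, SE 0.87), and Prdm1 (-0.52, SE 0.31). With libraries 9 and 10 left out, Tox was at 0.92 (SE 0.94) and Prdm1 at -0.25 (SE 0.29), and the 4T1 count was 12 higher and 3 lower (median 0.65).

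Genes with the pattern most like each member were sought over 28 libraries, without libraries 9 and 10, among 11063 genes with a mean of at least 5 CPM. The values are Pearson correlations of log2(CPM + 1), given as a description, since libraries of a group share its population and treatment. For Pdcd1 the closest included Pde4d (r = 0.96), Cd3e (0.95) and Ifngr1 (0.95), and for Cd274 they were Csf2ra, a receptor subunit for the myeloid growth factor GM-CSF (0.90), Gla (0.90), Acod1 (0.90) and Hdc (0.89). For Cd276 they were Bmp1 (0.93), Cdr2l (0.92), Prickle1 (0.91) and Cdc42bpa (0.91). Cd86 was closest to Pik3ap1 (0.82), Fbxl5 (0.79), G0s2 (0.78) and Upp1 (0.76), Pdcd1lg2 to D8Ertd738e (0.84), Exo5 (0.83), Lcmt1 (0.81) and Bspry (0.795), and Cd80 to mt-Co1 (0.78), Lilr4b (0.75), Mctp1 (0.74) and Srgn (0.74).

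After each group's mean was subtracted, so that only the spread within groups remained, other genes came first for most members. For Pdcd1 these were Crem (r = 0.84), Klre1 (0.82), Nr4a2 (0.82), a nuclear receptor induced by antigen receptor signals, and Krt83 (0.81). For Cd274 Acod1 (0.81) and Csf2ra (0.79) came first again, then Cep85l (0.76) and Mafk (0.76). For Cd276 they were Prickle1 (0.78), Enc1 (0.77), Bmp1 (0.73) and Chpf (0.72), for Cd80 Gna15, mt-Co1, Samsn1 and Tmem120a (0.78 to 0.80), for Pdcd1lg2 Rab4a, Gpr65, Exo5 and Gm10616 (0.78 to 0.84), and for Cd86 Gdf11, Pou2f1, Chic1 and Pik3ap1 (0.70 to 0.73).

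Among the members themselves, Pdcd1 and Cd274 ran opposite over the 28 libraries (r = -0.80), as did Pdcd1 and Cd276 (-0.78), while Cd274 and Cd276 ran together (0.70). Within groups the highest values were those of Pdcd1 with Cd80 (0.58) and with Pdcd1lg2 (0.51), and Pdcd1 with Cd274 was at -0.22. Library 19, with the highest Pdcd1 in CD4, also had the highest Pdcd1lg2 and the lowest Cd274 and Cd276 of that population. In CD8, library 27 had the highest Pdcd1 and Pdcd1lg2 and the lowest Cd274, and it also had the fewest counts of all libraries.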

How the data were processed

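Bulk RNA-seq libraries of 3 populations and 2 treatments were used. The raw counts per gene were deposited by the authors in 3 tables, and the log2 fold changes (CTRL over C269) and p-values in them are the authors' deposited values. The submitters' processing notes name FastQC, featureCounts, DESeq2 and the build mm9; gene starts in the tables matched GENCODE M21 (GRCm38) for 99.6% of the 55141 identifiers found in it. Count columns carry a number and no replicate label; each was assigned to a group because the authors' per-condition total, whose number is in the sample titles, was the sum of 1 set of 5 columns for 100% of genes. Ribosomal RNA features were left out of library sizes. Counts were filtered with filterByExpr, TMM-normalised and tested with edgeR 4.0.16 (quasi-likelihood, Benjamini-Hochberg over all genes tested, threshold 0.05) in R 4.3.3. Within each population the treatments were compared, populations in the 15 CTRL libraries, and interactions in all 30. The SE is the absolute log2 difference divided by the square root of F. DESeq2 1.42.0, no filter, other fits and each library left out were alternatives. The script was tested on simulated data. Pairs of libraries within a group were compared by the chi-square per gene of their counts, and no pair agreed within sampling noise. Libraries 1 and 3 were the closest pair of 4T1 CTRL, at 5.07 against 23.02 for the next pair. Libraries 9 and 10 were the closest of 4T1 C269, at 10.38 against 22.96. Whether such a pair shares an animal is not stated in the labels, and every test counted its members as separate libraries. The members and gene lists were chosen with earlier results of these data known. The text names the 6 genes, the 2 genes of each list with the smallest p in each population, and the 4 genes most like each member. Some genes that this rule picks are not reported here. Promoters are RefSeq (GRCm38.p6); that of Cd86 was not used here.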

Additional observations from a re-analysis of the deposited data

Results flagged for a closer look

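Of 36 sets of 5 libraries (6 genes in 6 groups), 4 held a library far from the other 4. The rule is set to flag about 1 in 20 sets, a rate not checked for values near 0. The sets also share libraries, so whether 4 is more than chance gives cannot be told. Pdcd1 in 4T1 CTRL was at 6.63 CPM in library 1 and 0 to 1.79 CPM in the others. Cd276 in 4T1 CTRL was at 36.7 CPM in library 5 and 8.98 to 13.2 CPM in the others. Cd276 in CD4 CTRL was at 19.5 CPM in library 14 and 6.54 to 9.17 CPM in the others. Cd276 in CD8 C269 was at 3.73 CPM in library 30 and 0 CPM in the others, so any count in library 30 would have been flagged. Library 5 had the highest fibroblast marker sum of 4T1 CTRL, 53935 CPM, and library 14 the lowest T cell marker sum of CD4 CTRL, 1417 CPM; their part in these values was not tested.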

How the results depend on the processing

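No paired analysis was possible because the count columns carry no replicate labels. For C269 against CTRL, edgeR called 0 genes in 4T1 (DESeq2 305, and 84 without libraries 9 and 10, the latter chosen after seeing the data), 0 in CD4 (no filter 83, DESeq2 14, 0 to 10 with each library left out, 10 without library 15) and 1 in CD8 (no filter 162, DESeq2 13, 0 to 1). At an unadjusted p under 0.05 edgeR found 1557, 697 and 725 genes. In the fit of all 30 libraries the CTRL comparisons called 1032 genes (CD8 against CD4, against 1658) and 868 (4T1 against CD4, against 1679; 998 to 1938 with each library left out). Interactions by DESeq2 called 2, 50 and 453 genes; with each library left out edgeR called 0 to 1, 0 to 16 and 1 to 220, and 0 for 4T1 against CD4 without libraries 9 and 10. In 4T1, Cd274 reversed to 0.28 without libraries 9 and 10 (0.24 by DESeq2) and Cd86 to 0.0079; in CD4, Pdcd1 passed without the filter (1.03, adjusted p = 0.0058). With each library left out, signs also turned for Pdcd1lg2 (-0.43 to 0.52) and Cd80 (-0.50 to 0.55) in 4T1, Cd274 in CD4 (-0.16 to 0.036) and CD8 (-0.27 to 0.065), and Pdcd1lg2 in 4T1 against CD4 CTRL (-0.39 to 0.14). Over 34 log2 differences of the 6 genes, 550 of 592 values kept direction and side of the threshold, 25 lost and 4 gained it, and 13 turned. The cause of these changes was not tested. Low counts limit Pdcd1 in 4T1 and Cd276 in CD8.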
